A study of Mus musculus with 18 samples.

Results

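MHC class I molecules display peptides of the cell's own proteins to CD8+ T cells, and their assembly line was followed here through 10 genes. The genes were chosen by symbol from what they are known to do, with earlier results of these data known. All 10 were found among the 24421 gene symbols of the count tables. They are the class I heavy chains *H2-K1*, *H2-D1* and *H2-T23*, the light chain *B2m*, the peptide transporter *Tap1* and *Tap2*, the loading chaperone *Tapbp*, and the immunoproteasome subunits *Psmb8*, *Psmb9* and *Psmb10*. The RNA came from macrophages of the knee synovium of WT C57BL/6 mice, 8 to 20 weeks old, sorted into LYVE1+CX3CR1+, MHCII+CD11c- and MHCII+CD11c+ subsets. Each subset was taken from untreated mice and from mice injected intravenously with immune complexes (IC; ovalbumin bound by rabbit antibody to it) 8 h earlier. The 6 groups had 3 bulk libraries each, 18 in all, and 1 library pooled the cells of 6 legs from 3 mice, so that p-values measure the spread between pools. All groups were WT, and none carried another allele. The comparisons ask how far the class I pathway differs between the subsets and whether circulating IC changed it.

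Proteasomes cut cytosolic proteins into peptides, and in immune cells the catalytic subunits PSMB8, PSMB9 and PSMB10 take the places of PSMB5, PSMB6 and PSMB7 to form the immunoproteasome. TAP1 and TAP2 together pump the peptides into the endoplasmic reticulum, where tapasin, the product of *Tapbp*, holds the empty heavy chain and beta-2 microglobulin beside the transporter until a peptide fits. H2-K and H2-D present to CD8+ T cells, whereas H2-T23 encodes Qa-1, a nonclassical molecule read by the CD94-NKG2 receptors of NK and T cells. Interferons induce the whole pathway through transcription factors such as IRF1 and the class I transactivator NLRC5.

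Of the members, 8 lie in the MHC on chromosome 17 and the other two elsewhere (RefSeq, GRCm38). *Psmb9* (chr17:34182030-34187330, reverse strand) and *Tap1* (chr17:34187556-34197225, forward strand) point away from each other across a gap of 225 bases, and *Psmb8* (chr17:34198195-34201454) and *Tap2* (chr17:34204479-34216321) follow on the forward strand, so that the 4 genes fill 34292 bases. *Tapbp* (chr17:33919478-33929290) and *H2-K1* (chr17:33996012-34000619) lie to their left, and *H2-D1* (chr17:35263094-35267497) and *H2-T23* (chr17:36029977-36032701) to their right. *B2m* is at chr2:122147687-122153082 and *Psmb10* at chr8:105935728-105938392.

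Promoters of the members were read from RefSeq (GRCm38), which held a window of 250 bases before to 50 after a start site for 9 of the 10 members. The window of *H2-K1* lies inside the span of the gene given above, so it does not surround the start of that span. Printed are the windows of *Tap1*, *H2-T23* and *Psmb8*, which differed between subsets below, and those of *H2-D1*, *H2-K1* and *B2m*, the most abundant members, which did not pass the test. The window of *Psmb9* shares 275 of its bases with that of *Tap1*, read from the other strand, and is not printed again. Capitals mark matches, on either strand, to the interferon-stimulated response element (GAAA, any 2 bases, GAAA), the gamma-activated site (TTCNNNGAA), the NF-kappaB motif, the CCAAT box and the core of the cAMP response element, CRE (TGACG).
*Tap1* (chr17:34187306-34187605, forward strand): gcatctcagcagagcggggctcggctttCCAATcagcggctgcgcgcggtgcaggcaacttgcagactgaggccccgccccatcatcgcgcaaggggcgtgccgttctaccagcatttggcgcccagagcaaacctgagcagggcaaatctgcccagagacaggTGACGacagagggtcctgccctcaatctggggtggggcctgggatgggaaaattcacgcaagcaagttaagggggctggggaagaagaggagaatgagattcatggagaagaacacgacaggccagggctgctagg
*H2-T23* (chr17:36032652-36032951, reverse strand): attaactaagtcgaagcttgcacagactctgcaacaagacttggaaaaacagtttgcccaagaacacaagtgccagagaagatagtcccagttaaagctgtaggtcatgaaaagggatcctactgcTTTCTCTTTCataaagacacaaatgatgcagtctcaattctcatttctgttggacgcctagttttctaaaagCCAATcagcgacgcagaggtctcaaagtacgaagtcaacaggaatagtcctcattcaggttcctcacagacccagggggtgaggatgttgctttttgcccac
*Psmb8* (chr17:34197945-34198244, forward strand): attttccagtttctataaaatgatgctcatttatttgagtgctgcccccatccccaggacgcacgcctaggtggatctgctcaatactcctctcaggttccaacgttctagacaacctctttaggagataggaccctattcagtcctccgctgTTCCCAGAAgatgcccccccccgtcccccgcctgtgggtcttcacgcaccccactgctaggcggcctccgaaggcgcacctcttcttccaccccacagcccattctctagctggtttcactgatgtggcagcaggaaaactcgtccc
*H2-D1* (chr17:35262844-35263143, forward strand): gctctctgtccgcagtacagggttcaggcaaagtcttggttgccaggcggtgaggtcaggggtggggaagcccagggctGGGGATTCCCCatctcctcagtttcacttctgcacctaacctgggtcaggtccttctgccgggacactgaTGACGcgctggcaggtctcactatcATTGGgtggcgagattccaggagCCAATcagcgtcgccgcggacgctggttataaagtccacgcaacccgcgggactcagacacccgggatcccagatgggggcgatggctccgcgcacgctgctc
*H2-K1* (chr17:34000298-34000597, reverse strand): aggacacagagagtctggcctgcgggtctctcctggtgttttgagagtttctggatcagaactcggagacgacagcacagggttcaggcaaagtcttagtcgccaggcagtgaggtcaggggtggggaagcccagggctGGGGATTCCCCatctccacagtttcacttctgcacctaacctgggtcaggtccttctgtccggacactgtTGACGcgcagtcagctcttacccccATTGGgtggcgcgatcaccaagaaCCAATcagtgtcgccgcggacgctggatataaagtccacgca
*B2m* (chr2:122147437-122147736, forward strand): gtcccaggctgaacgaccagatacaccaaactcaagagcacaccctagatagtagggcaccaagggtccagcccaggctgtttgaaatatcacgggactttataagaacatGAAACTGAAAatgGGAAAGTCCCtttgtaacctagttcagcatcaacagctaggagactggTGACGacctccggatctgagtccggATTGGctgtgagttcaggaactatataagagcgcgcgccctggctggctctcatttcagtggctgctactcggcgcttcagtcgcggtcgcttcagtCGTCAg

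The windows of *H2-K1* and *H2-D1* carried the same 5 matches in the same order: 2 overlapping NF-kappaB matches, which sit on the same 11 bases, then a CRE core and 2 CCAAT boxes on opposite strands. *B2m* held a response element next to an NF-kappaB match, as well as 1 CCAAT box and 2 CRE cores, and *H2-T23* held a response element and a CCAAT box. The shared *Tap1* and *Psmb9* window held a CCAAT box and a CRE core, *Psmb8* held a gamma-activated site alone, *Tapbp* held 2 CCAAT boxes, and *Psmb10* had no match. Among 27025 RefSeq promoters of the same length, 3.49% held the response element, 8.47% the gamma-activated site, 8.18% the NF-kappaB motif, 37.9% the CCAAT box and 21% the CRE core. These are matches of letters in the reference genome, and nothing bound to them was measured here. Only full matches to the patterns were marked, so a window without a match may still hold a variant of the element.

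Library totals ranged from 245903 to 2172358 counts, and the MHCII+CD11c- IC group was the shallowest (245903 to 973951). Its replicate 2, the smallest library of all, held the lowest value of the 18 libraries for 5 of the 10 members and the highest for *Psmb8*, so results on this group are given with and without it. In untreated mice the sort genes followed the labels. *H2-Ab1*, a class II chain, was at 20.2 ± 0.202 CPM (the gene's count relative to the library total, scaled by TMM; mean ± SD, n = 3) in untreated LYVE1+CX3CR1+ macrophages and at 4626 ± 105 and 7162 ± 609 CPM in untreated MHCII+CD11c- and MHCII+CD11c+ macrophages. *Itgax*, which encodes CD11c, was at 269 ± 32.1 CPM in untreated MHCII+CD11c+ macrophages and at 6.02 ± 6.29 CPM in untreated MHCII+CD11c- macrophages. With IC, *Itgax* rose (log2 fold change 2.75 ± 0.63, SE) and *H2-Ab1* fell (-0.68 ± 0.16) in MHCII+CD11c- macrophages. *Lyve1* (1.54 ± 0.28) and *Cx3cr1* (0.85 ± 0.20) rose in MHCII+CD11c+ macrophages (edgeR, adjusted p over all genes 0.00881 to 0.0471 for these changes). *H2-Ab1* and *Itgax* still followed the labels after IC, but *Lyve1* no longer differed past the test between the MHCII+ subsets. All 6 listed macrophage markers were detected in every group, but at unequal levels. They summed to 7710 to 8345 CPM in untreated LYVE1+CX3CR1+, 5589 to 6187 in MHCII+CD11c- and 3601 to 3973 in MHCII+CD11c+ libraries. After IC the sums were 7934 to 8949, 4405 to 6077 and 3799 to 4167 CPM in the same order.

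Transcripts of other class I-bearing cells were not evenly spread over the subsets, and their part in the differences below was not tested. Of 6 B cell markers, untreated LYVE1+CX3CR1+ libraries held 2, with a summed level of 0 to 1.62 CPM, whereas all 6 were present in untreated MHCII+CD11c- (211 to 309 CPM) and MHCII+CD11c+ (65.7 to 97.4 CPM) libraries. Of 10 dendritic cell markers, 7 were detected in untreated LYVE1+CX3CR1+ libraries (8.76 to 15.6 CPM) and 10 in both other subsets (171 to 177 and 317 to 521 CPM). After IC their sums were lower, at 3.69 to 4.32, 81.1 to 130 and 224 to 256 CPM in the same order. The 5 mast cell markers summed to 0 to 52.7, 6.11 to 214 and 6.3 to 82.2 CPM in the untreated subsets. After IC they summed to 0 to 31.7, 115 to 478 and 44.7 to 267 CPM. The 9 neutrophil markers in the tables summed to 18.9 to 24.8, 770 to 1713 and 129 to 625 CPM in the untreated subsets, in the same order, and to 19.2 to 158, 1438 to 3692 and 976 to 2186 CPM after IC. The 11 T and NK cell markers in the tables summed to 5.92 to 13.2, 55 to 97.7 and 84.8 to 116 CPM in the untreated subsets, most of it from *Cd2* (means of 8.21, 73.2 and 98.5 CPM), and *Cd3e*, the defining chain of T cells, had no count in any library. The 8 fibroblast markers stood apart in a single untreated LYVE1+CX3CR1+ library, replicate 1, at 645 CPM against 31.3 and 30.2 CPM in its replicates, and at 54.6 to 91.7 and 26.3 to 70.3 CPM in the untreated MHCII+CD11c- and MHCII+CD11c+ libraries. That library also held the lowest *Psmb9* value, and the comparisons are given below without it.

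All 10 members were read in every library, and all 10 passed the filter on low counts that left 10550 genes to test. Per kilobase of exon, the scale on which genes can be set beside each other, *B2m* had the highest mean level over the 18 libraries (1468 CPM per kb) and *H2-D1* followed with 1149, *H2-K1* with 563, *Tapbp* with 133, *H2-T23* with 129 and *Psmb8* with 112. *Psmb10* (42.2), *Tap1* (35.9), *Tap2* (18.1) and *Psmb9* (18) were the lowest. Neighbors in this order overlapped in their ranges over libraries in every case but that of *H2-K1* (439 to 740) and *Tapbp* (76.7 to 160). On the CPM scale *H2-K1* ranged from 727 to 1225, *H2-D1* from 1397 to 2923, *B2m* from 881 to 1502, *Tapbp* from 222 to 465, *Tap2* from 39.5 to 95 and *Psmb10* from 15.1 to 80.1. *H2-K1* and *B2m* were the steadiest members, with a highest value over the lowest of 1.69 and 1.70, followed by *H2-D1* and *Tapbp* (2.09 each) and *H2-T23* (2.11). *Psmb10* (5.32) and *Psmb9* (4.94) spread the most, and *Psmb9* was also the least read, at 7 to 80 counts a library.

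**Figure D1:**
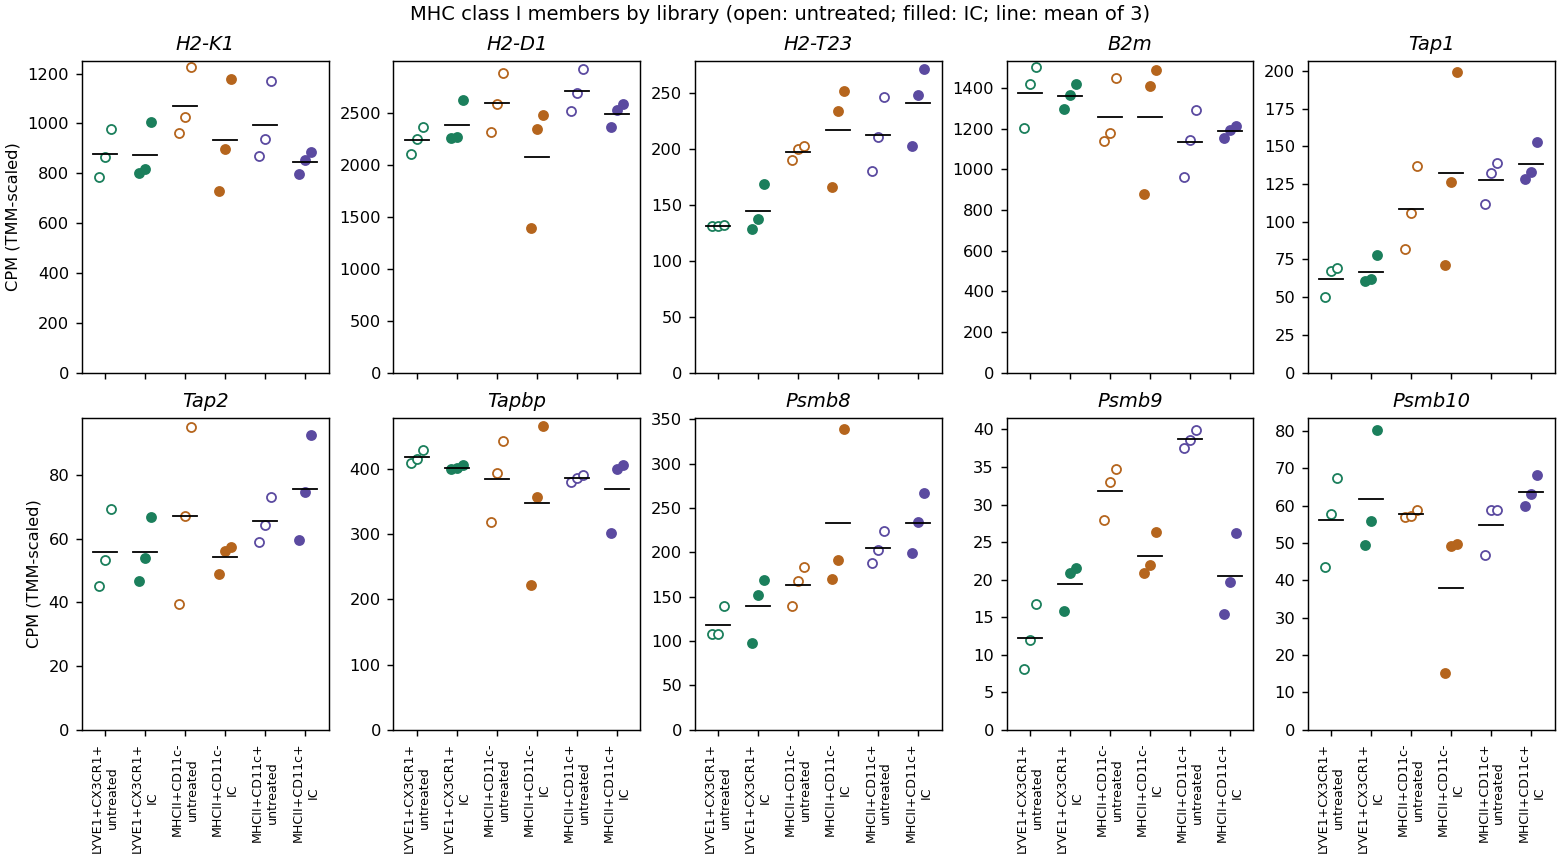
TMM-scaled CPM of each member (vertical axis, from 0) in the 3 libraries of each group, sorted by value within a group, with open points for untreated and filled points for IC and a line at the mean. *Tap1* and *H2-T23* sit lower in LYVE1+CX3CR1+ macrophages than in the MHCII+CD11c+ subset under both conditions, *B2m* and *Tapbp* do not, and *Psmb9* separates the untreated subsets (8.09 to 16.7 against 27.9 to 39.9 CPM).

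In untreated mice, LYVE1+CX3CR1+ macrophages had lower *Psmb9*, *Tap1* and *H2-T23* than the other subsets, and lower *Psmb8* than MHCII+CD11c+ macrophages, while the classical heavy chains and *B2m* did not pass the test. *Psmb9* was at 8.09, 11.9 and 16.7 CPM in the 3 untreated LYVE1+CX3CR1+ libraries, at 27.9, 33 and 34.7 CPM in the MHCII+CD11c- libraries and at 37.5, 38.6 and 39.9 CPM in the MHCII+CD11c+ libraries. No LYVE1+CX3CR1+ library reached the lowest library of either other subset. Its log2 fold change was -1.36 ± 0.33 (SE) with MHCII+CD11c- and -1.64 ± 0.32 with MHCII+CD11c+ macrophages as the reference (quasi-likelihood test of edgeR, Benjamini-Hochberg adjusted p over all genes = 0.00659 and 0.000315). The latter is 0.321 of the MHCII+CD11c+ level, with a 95% interval of 0.205 to 0.504.

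*Tap1*, which shares the short intergenic promoter printed above with *Psmb9*, was at 50.1, 67.4 and 69.6 CPM in untreated LYVE1+CX3CR1+ libraries. It was at 81.9, 106 and 137 CPM in MHCII+CD11c- and at 112, 132 and 139 CPM in MHCII+CD11c+ libraries, again without overlap. Its log2 fold change was -0.80 ± 0.25 against MHCII+CD11c- (edgeR, adjusted p = 0.0346) and -1.04 ± 0.24 against MHCII+CD11c+ macrophages (adjusted p = 0.00201). *Tap2*, the other chain of the transporter, did not follow it past the test: it was at 45.1 to 69.4 CPM in untreated LYVE1+CX3CR1+, 39.5 to 95 CPM in MHCII+CD11c- and 58.8 to 73 CPM in MHCII+CD11c+ libraries, with log2 fold changes of -0.27 (95% interval -0.83 to 0.28) and -0.23 (-0.76 to 0.30). The 3 untreated LYVE1+CX3CR1+ libraries held *H2-T23* at 131, 131 and 132 CPM, below the 190 to 202 CPM of MHCII+CD11c- and the 180 to 246 CPM of MHCII+CD11c+ libraries. Its log2 fold change was -0.59 ± 0.18 against MHCII+CD11c- (edgeR, adjusted p = 0.0313) and -0.69 ± 0.18 against MHCII+CD11c+ macrophages (adjusted p = 0.00459).

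*Psmb8* was at 108, 108 and 140 CPM in untreated LYVE1+CX3CR1+, at 139, 168 and 183 CPM in MHCII+CD11c- and at 188, 203 and 224 CPM in MHCII+CD11c+ libraries. The difference passed against MHCII+CD11c+ macrophages (log2 fold change -0.79 ± 0.22, edgeR, adjusted p = 0.0105) and not against MHCII+CD11c- macrophages, whose range it touched. *Psmb10*, the remaining immunosubunit, showed no such pattern, at 43.6 to 67.4, 57 to 58.7 and 46.7 to 58.8 CPM in the same order.

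In all, 3 of the 10 members were lower in untreated LYVE1+CX3CR1+ than in MHCII+CD11c- macrophages and 0 were higher, beside 11.4% of all genes tested that passed in either direction, 4.32% higher and 7.12% lower. Against MHCII+CD11c+ macrophages 4 of 10 were lower and 0 higher, beside 21.8% in either direction, 9.48% higher and 12.4% lower. The libraries of the compared groups did not overlap for 3 members in the first comparison (28.9% of all genes tested) and for 6 in the second (41.3%). The members' median log2 fold changes were -0.28 and -0.25, and the median over all genes tested was -0.02 in both comparisons. The remaining members lay between -0.46 (*Psmb8*) and 0.13 (*B2m*) against MHCII+CD11c- and between -0.28 (*H2-D1*) and 0.28 (*B2m*) against MHCII+CD11c+ macrophages. *H2-D1* was at 2101 to 2369 CPM in untreated LYVE1+CX3CR1+ and at 2523 to 2923 CPM in MHCII+CD11c+ libraries, so the groups did not overlap, but the difference did not pass (edgeR, adjusted p = 0.274; 95% interval -0.62 to 0.06 on the log2 scale). *Tapbp* was apart the other way, at 409 to 429 against 380 to 390 CPM, with a log2 fold change of 0.12 (adjusted p = 0.736). In bulk RNA, fewer cells of a type and less RNA per cell cannot be told apart.

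The calls against MHCII+CD11c+ macrophages were firmer than those against MHCII+CD11c-. Against MHCII+CD11c+, *Psmb9*, *Tap1* and *H2-T23* passed whichever untreated library was left out, and *Psmb8* failed without LYVE1+CX3CR1+ replicate 1 (edgeR, adjusted p = 0.0544) or 3 (adjusted p = 0.0594). Against MHCII+CD11c-, *H2-T23* failed without any of the 6 libraries in turn (adjusted p up to 0.102) and *Tap1* without any but MHCII+CD11c- replicate 2 (up to 0.218), while *Psmb9* failed only without LYVE1+CX3CR1+ replicate 1 (0.0517). Without that replicate, the library high in fibroblast markers, the log2 fold changes of *Psmb9*, *Tap1* and *H2-T23* were -1.14, -0.86 and -0.58 against MHCII+CD11c- and -1.42, -1.1 and -0.69 against MHCII+CD11c+ macrophages.

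**Figure D2:**
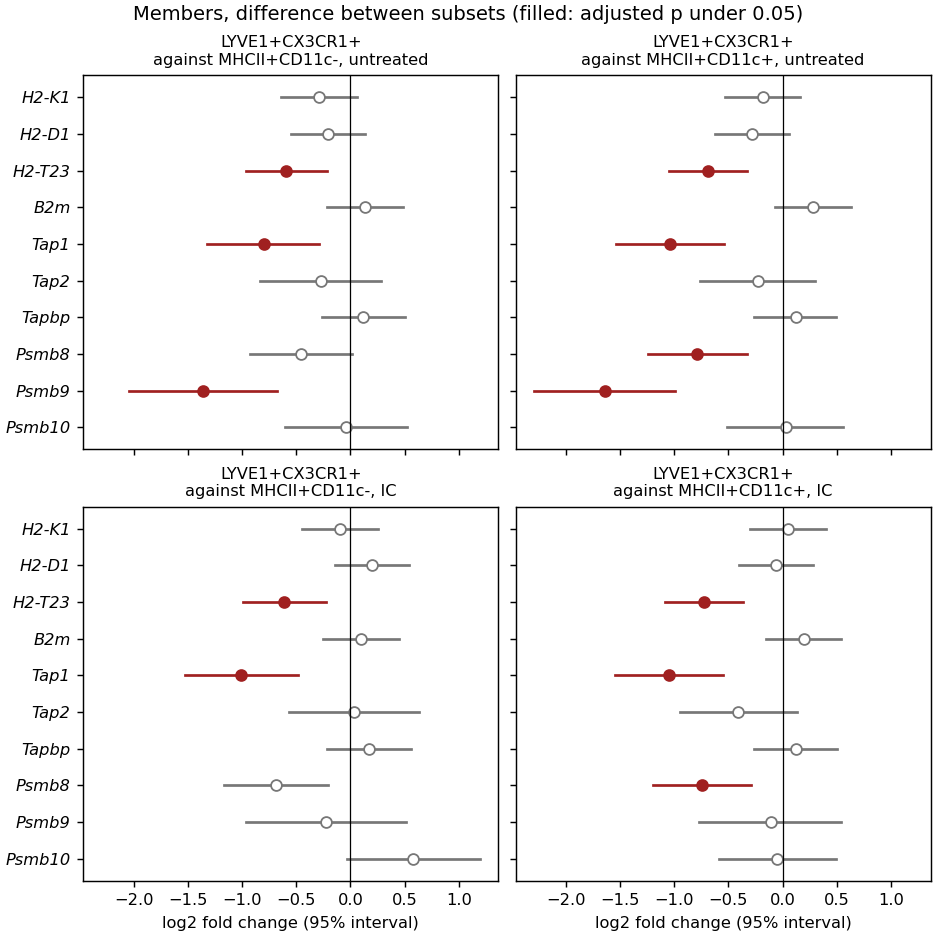
Log2 fold change (horizontal axis) of each member in LYVE1+CX3CR1+ macrophages against each MHCII+ subset, untreated (top) and after IC (bottom), with bars for 95% intervals of the edgeR fit over 18 libraries and filled red points for adjusted p under 0.05. The 12 filled points all lie below 0, and *Psmb9* moves from -1.36 and -1.64 in untreated mice to open points near 0 after IC.

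Between the 2 MHCII+ subsets no member differed past the test. In untreated mice 0 of 10 members were called between MHCII+CD11c+ and MHCII+CD11c- macrophages (edgeR; 0 also with DESeq2), beside 3.49% of all genes tested, and 0 had an unadjusted p under 0.05, beside 16.1%. The largest difference was in *Psmb8* (log2 fold change 0.33, 95% interval -0.13 to 0.79), whose groups did not overlap, and *Psmb9*, also apart, differed by 0.28 (-0.35 to 0.91). Groups were apart for these 2 members and for 22.3% of all genes tested. After IC, 0 members were called (edgeR and DESeq2), beside 2.84%, and 1, *Psmb10*, had an unadjusted p under 0.05, beside 15.6%. *Psmb10* was at 59.8 to 68.2 CPM in MHCII+CD11c+ and at 15.1, 49.1 and 49.7 CPM in MHCII+CD11c- libraries (log2 fold change 0.63 ± 0.30, edgeR, adjusted p = 0.31), and without the smallest library, which holds the 15.1, it was 0.38 ± 0.28. *Tap2* was the other member apart after IC (59.7 to 92.6 against 48.9 to 57.5 CPM, log2 fold change 0.44 ± 0.29), beside 16.8% of all genes tested.

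After IC, *Tap1* and *H2-T23* were again lower in LYVE1+CX3CR1+ than in both MHCII+ subsets, and *Psmb8* was lower than in MHCII+CD11c+ macrophages, but *Psmb9* no longer differed past the test. *Tap1* was at 60.5, 62.2 and 77.8 CPM in LYVE1+CX3CR1+, at 71.5, 126 and 199 CPM in MHCII+CD11c- and at 128, 133 and 153 CPM in MHCII+CD11c+ libraries, with log2 fold changes of -1.01 ± 0.26 (edgeR, adjusted p = 0.0115) and -1.05 ± 0.24 (adjusted p = 0.00223). *H2-T23* was at 128, 137 and 168 CPM in LYVE1+CX3CR1+ against 166, 234 and 251 CPM in MHCII+CD11c- and 202, 248 and 271 CPM in MHCII+CD11c+ libraries (log2 fold changes -0.61 ± 0.18 and -0.73 ± 0.18, edgeR, adjusted p = 0.0346 and 0.00316). The 71.5 and 166 CPM, which reach into the LYVE1+CX3CR1+ range, are both from the smallest library.

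*Psmb8* was at 97.5, 152 and 169 CPM in LYVE1+CX3CR1+ libraries after IC. It was at 170, 191 and 339 CPM in MHCII+CD11c- and at 199, 234 and 267 CPM in MHCII+CD11c+ libraries, apart from both. The log2 fold change was -0.74 ± 0.22 against MHCII+CD11c+ (edgeR, adjusted p = 0.0176) and -0.69 ± 0.23 against MHCII+CD11c- macrophages (adjusted p = 0.062, not called). Without the smallest library, which held the 339 CPM, the latter was -0.34 ± 0.22.

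So after IC 2 members were lower against MHCII+CD11c- and 3 against MHCII+CD11c+ macrophages, with 0 higher in either, beside 9.77% and 19.7% of all genes tested in either direction, 3.32% and 8.21% higher, and 6.45% and 11.5% lower. Groups did not overlap for 1 member in the first comparison (25.1% of all genes tested) and for 4 in the second (38.0%). Without the smallest library the first count was again 2, and *Tap1* (-1.22, edgeR, adjusted p = 0.000967) and *H2-T23* (-0.72, adjusted p = 0.00866) were the members called. Leaving out MHCII+CD11c- replicate 1 took the count to 0, as did leaving out LYVE1+CX3CR1+ replicate 3, and leaving out LYVE1+CX3CR1+ replicate 1 or 2 or MHCII+CD11c- replicate 3 cost *H2-T23* or *Tap1* its call (adjusted p 0.0652 to 0.175). Without MHCII+CD11c- replicate 3 *Psmb8* was called (-0.86, adjusted p = 0.029). Against MHCII+CD11c+ macrophages *Psmb8* failed without LYVE1+CX3CR1+ replicate 3 (0.132) or MHCII+CD11c+ replicate 2 (0.12), and *Tap1* and *H2-T23* passed throughout. *B2m* was apart from the MHCII+CD11c+ libraries in the other direction (1296 to 1421 against 1155 to 1212 CPM), at a log2 fold change of 0.20 (95% interval -0.15 to 0.54).

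IC changed no member past the test in any subset. The count was 0 of 10 in LYVE1+CX3CR1+ (beside 0.464% of all genes tested), 0 in MHCII+CD11c- (beside 1.06%) and 0 in MHCII+CD11c+ macrophages (beside 0.673%) with edgeR, and 0 in each with DESeq2. At an unadjusted p under 0.05 the counts were 0 (beside 8.71%), 0 (beside 14.6%) and 1 (beside 9.48%). Without the smallest library the count in MHCII+CD11c- macrophages was 1, *Tap1* (edgeR, unadjusted p = 0.0339, adjusted p = 0.285). Averaged over the 3 subsets, where 6.21% of all genes passed, 0 members did (edgeR and DESeq2), and 1, *Psmb8*, had an unadjusted p under 0.05 (beside 19.0%), with a log2 fold change of 0.29 ± 0.13 (edgeR, adjusted p = 0.212). Without the smallest library *Psmb8* was at 0.19 ± 0.11 (edgeR, unadjusted p = 0.114), and *H2-T23* was the member under 0.05 instead, at 0.21 ± 0.09 (unadjusted p = 0.0387, adjusted p = 0.208). In LYVE1+CX3CR1+ macrophages the log2 fold change was 0.00 for *H2-K1* (95% interval -0.35 to 0.34), 0.09 for *H2-D1* (-0.25 to 0.43) and -0.01 for *B2m* (-0.36 to 0.33), which bounds a rise of these 3 at 1.35-fold. The other members of that subset lay between -0.06 for *Tapbp*, the 1 member whose groups were apart (399 to 405 after IC against 409 to 429 CPM; 19.1% of all genes tested), and 0.65 for *Psmb9*.

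In MHCII+CD11c- macrophages the IC response ranged from -0.49 ± 0.36 for *Psmb9* to 0.47 ± 0.24 for *Psmb8*, and without the smallest library *Psmb8* was at 0.13 ± 0.22 and *Tap1* at 0.53 ± 0.24. *Psmb10* was apart in this subset (15.1 to 49.7 after IC against 57 to 58.7 CPM), with a log2 fold change of -0.48 ± 0.31, and -0.23 ± 0.28 without that library. In MHCII+CD11c+ macrophages it ranged from -0.88 ± 0.31 for *Psmb9* to 0.22 ± 0.26 for *Psmb10*, both with groups apart. Groups did not overlap for 2 members (*Psmb9* and *Psmb10*) in each of these subsets, beside 14.2% of all genes tested in the MHCII+CD11c- and 18.5% in the MHCII+CD11c+ subset.

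**Figure D3:**
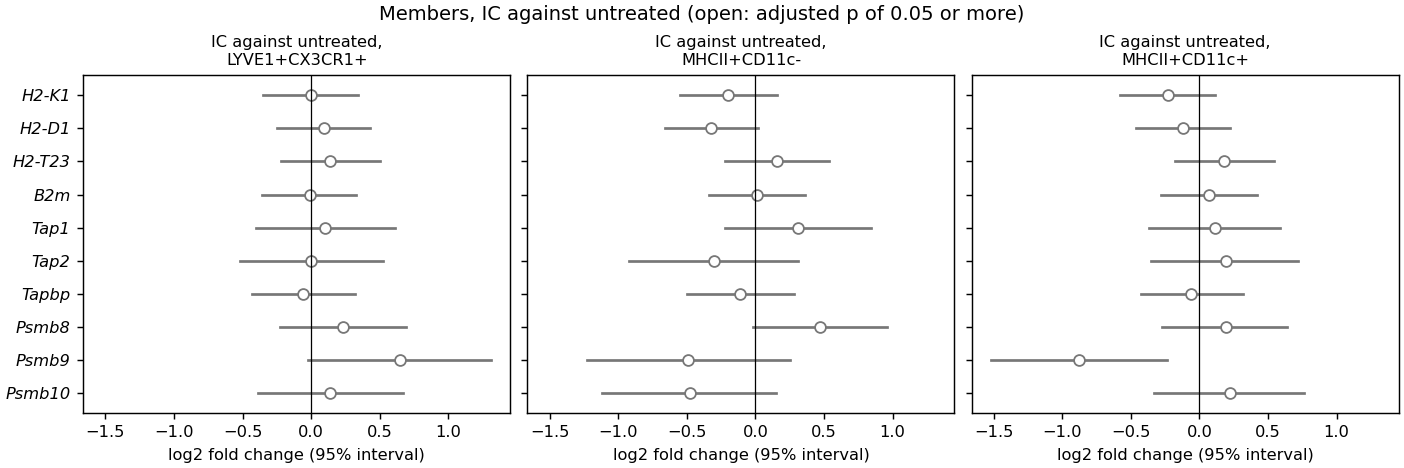
Log2 fold change of each member after IC against untreated (horizontal axis) in each subset, with bars for 95% intervals of the edgeR fit. All 30 points are open, and the point farthest from 0 is *Psmb9* in MHCII+CD11c+ macrophages (-0.88, adjusted p = 0.268).

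*Psmb9* was the member with the widest spread of IC responses. In LYVE1+CX3CR1+ macrophages it was at 15.8, 20.9 and 21.6 CPM after IC, against 8.09, 11.9 and 16.7 CPM untreated. In MHCII+CD11c- macrophages it was at 20.9, 22 and 26.4 CPM after IC, below the untreated 27.9 to 34.7 CPM, and in MHCII+CD11c+ macrophages at 15.4, 19.7 and 26.2 CPM, below the untreated 37.5 to 39.9 CPM. The 3 subsets thus overlapped after IC (15.4 to 26.4 CPM in all) where the LYVE1+CX3CR1+ subset had stood apart before. The difference between the responses of LYVE1+CX3CR1+ and MHCII+CD11c+ macrophages was 1.52 ± 0.45 on the log2 scale (95% interval 0.60 to 2.45), with an unadjusted p of 0.00226 in edgeR that did not pass over all genes (adjusted p = 0.824). Against MHCII+CD11c- macrophages it was 1.14 ± 0.48 (edgeR, adjusted p = 0.751), and 1.22 ± 0.50 without the smallest library (adjusted p = 0.58). No member differed in its response between any pair of subsets past the test (0 of 10 in each with edgeR and with DESeq2). Of all genes tested, 0% passed for LYVE1+CX3CR1+ against MHCII+CD11c-, 0.00948% against MHCII+CD11c+ and 0.00948% for MHCII+CD11c+ against MHCII+CD11c- macrophages. At an unadjusted p under 0.05 the members counted 1 (beside 6.52%), 1 (beside 4.49%) and 0 (beside 6.09%), and *Psmb9* was the member in both. The counts behind these values are low: 12, 19 and 31 reads in the untreated LYVE1+CX3CR1+ libraries and 8, 7 and 22 in the MHCII+CD11c- IC libraries.

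Set against the transcript of the constitutive subunit whose place it takes, *Psmb8* was the more abundant and *Psmb9* the less. Per kilobase of exon, *Psmb8* exceeded *Psmb5* in all 18 libraries, by 1.04 to 1.85 in LYVE1+CX3CR1+, 1.70 to 4.48 in MHCII+CD11c- and 1.33 to 2.84 in MHCII+CD11c+ libraries. *Psmb9* was below *Psmb6* in all 18 (ratios of 0.0864 to 0.34), and *Psmb10* and *Psmb7* were closer to each other (0.516 to 1.33) apart from 0.0931 in the smallest library, where *Psmb10* had 4 counts. The mean log2 ratio of *Psmb9* to *Psmb6* was -3.09 ± 0.46 (SD, n = 3) in untreated LYVE1+CX3CR1+ and -1.69 ± 0.06 and -1.67 ± 0.16 in untreated MHCII+CD11c- and MHCII+CD11c+ macrophages. After IC it was -2.69 ± 0.08, -2.07 ± 0.14 and -2.75 ± 0.54. The constitutive subunits *Psmb5*, *Psmb6* and *Psmb7* themselves passed the test between no pair of subsets (0 of 3 each with edgeR and with DESeq2; 1 of 3 at an unadjusted p under 0.05 in MHCII+CD11c- macrophages against either other subset after IC, 0 elsewhere). *Psmb7* rose with IC over the 3 subsets (log2 fold change 0.53 ± 0.16, edgeR, adjusted p = 0.0464). This call was lost in 14 of 18 fits with 1 library left out (edgeR, adjusted p up to 0.116). By subset the change was 0.37 ± 0.26 in LYVE1+CX3CR1+, 0.92 ± 0.30 in MHCII+CD11c-, which holds the smallest library, and 0.29 ± 0.26 in MHCII+CD11c+ macrophages.

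**Figure D4:**
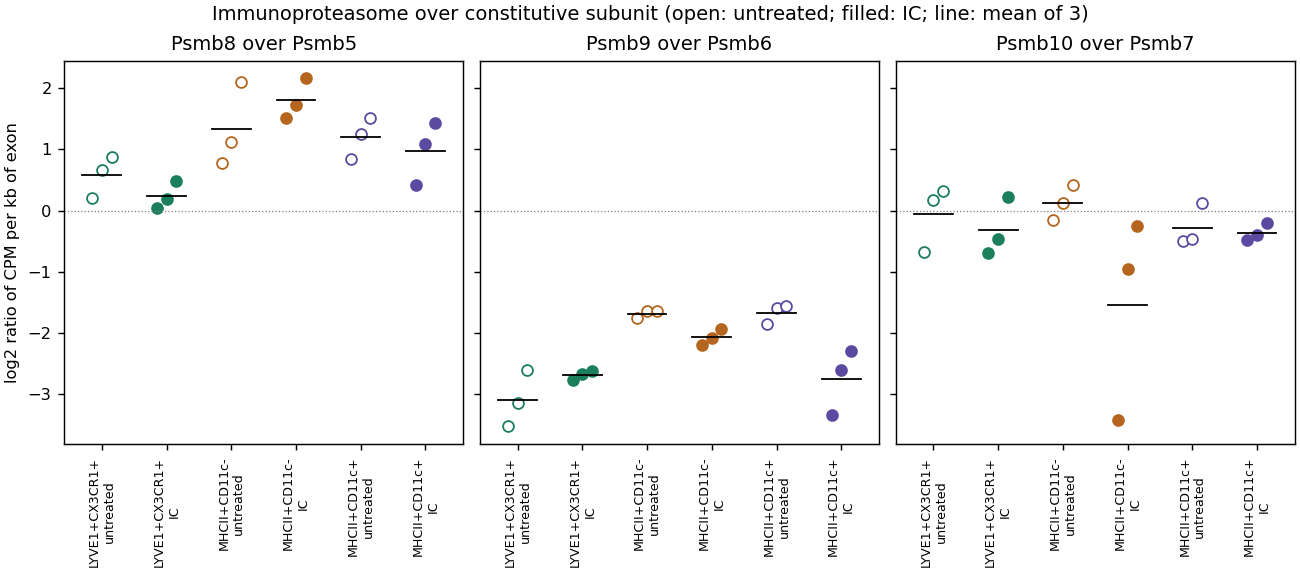
Log2 ratio of TMM-scaled CPM per kb of exon (vertical axis) of each immunosubunit over its constitutive counterpart, in the 3 libraries of each group, sorted by value, with open points for untreated, filled points for IC, a line at the mean and a dotted line at equal levels. *Psmb8* lies above 0 and *Psmb9* below 0 in all 18 libraries, and the lowest *Psmb10* point is the smallest library (ratio 0.0931).

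Genes that work with the members were taken from 6 lists, beside the background shares given above for each comparison. Among the other class I and class I-like heavy chains, 16 of 22 were tested. Of these, 5 were lower and 1 higher in untreated LYVE1+CX3CR1+ than in MHCII+CD11c- macrophages, and likewise 5 and 1 against MHCII+CD11c+ macrophages (list medians -0.95 and -0.86 beside -0.02 for all genes). *H2-Q7*, a Qa-2 heavy chain, was lower in all 4 comparisons, at log2 fold changes of -1.31 ± 0.30 and -1.27 ± 0.29 in untreated mice (edgeR, adjusted p = 0.00384 and 0.00163) and -1.66 ± 0.33 and -1.27 ± 0.32 after IC. *H2-Q5* (-2.0 ± 0.49) and *H2-Q6* (-1.5 ± 0.39) were lower against untreated MHCII+CD11c- macrophages. Because the Qa-2 genes, with *H2-Q6* and *H2-Q7* among them, are near-identical copies, reads may be split among them. Without MHCII+CD11c- replicate 1 *H2-Q6* lost its call (adjusted p = 0.148), while *H2-Q7* passed in all 4 comparisons whichever library was left out. *Cd1d1*, which presents lipids, had 2 counts over the 3 untreated LYVE1+CX3CR1+ libraries, against 40 in MHCII+CD11c- and 68 in MHCII+CD11c+ libraries. *Fcgrt*, the neonatal Fc receptor, went the other way: it was higher in LYVE1+CX3CR1+ macrophages by 0.74 ± 0.17 and 1.09 ± 0.17 untreated and by 1.08 ± 0.18 and 1.39 ± 0.17 after IC (edgeR, adjusted p = 0.00454, 2.75e-05, 0.000144 and 1.28e-06). Its product recycles IgG and also pairs with B2M. After IC the list had 1 gene higher and 2 lower against MHCII+CD11c-, and 2 higher and 2 lower against MHCII+CD11c+ macrophages.

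Of 25 regulators of class I expression, all tested, 3 were lower and 0 higher in untreated LYVE1+CX3CR1+ than in MHCII+CD11c- macrophages, and 8 were lower and 1, *Nfya* (0.59 ± 0.21), higher against MHCII+CD11c+ macrophages (medians -0.33 and -0.22). *Nlrc5*, the class I transactivator, was at 15.5 to 17.2 CPM in untreated LYVE1+CX3CR1+, 61.6 to 96 CPM in MHCII+CD11c- and 32.2 to 43.6 CPM in MHCII+CD11c+ libraries. Its log2 fold changes were -2.19 ± 0.31 and -1.27 ± 0.31 (edgeR, adjusted p = 2.13e-05 and 0.00294), and after IC -1.83 ± 0.35 and -1.96 ± 0.32, all past the threshold whichever library was left out. *Irf1*, a transcription factor induced by interferon, was lower against untreated MHCII+CD11c- macrophages, at -0.85 ± 0.18 (edgeR, adjusted p = 0.00214), and passed whichever library was left out. The kinases *Jak2* (-1.31 ± 0.26) and *Tyk2* (-1.52 ± 0.25) and the feedback inhibitor *Socs1* (-1.44 ± 0.42) were lower against untreated MHCII+CD11c+ macrophages, *Socs1* only while LYVE1+CX3CR1+ replicate 1 and MHCII+CD11c+ replicate 3 were kept (adjusted p up to 0.0715 without them). After IC, 3 regulators were lower against MHCII+CD11c- and 5 against MHCII+CD11c+ macrophages, with 0 higher. Over the 3 subsets IC raised *Atf1* (0.54 ± 0.16, edgeR, adjusted p = 0.0389) and lowered *Irf1* (-0.57 ± 0.11, adjusted p = 0.00137). *Atf1* lost its call without some libraries (adjusted p up to 0.101), and *Irf1* did not.

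Of 18 peptide loading and trimming genes, 17 were tested, and 1 was lower in untreated LYVE1+CX3CR1+ than in MHCII+CD11c- macrophages and 3 were lower than in the MHCII+CD11c+ subset. *Lap3*, a leucine aminopeptidase, was among them in both (-1.18 ± 0.34 and -0.96 ± 0.32), and *Uggt1*, the glucosyltransferase that checks glycoprotein folding, was lower against MHCII+CD11c+ macrophages untreated (-0.92 ± 0.17) and after IC (-0.84 ± 0.17). *Lap3* lost its calls without several libraries (adjusted p up to 0.22 and 0.17) whereas *Uggt1* kept both whichever was left out. The remaining gene was *Hspa5* (-0.55 ± 0.15). IC also moved genes of this list. The endoplasmic reticulum chaperone *Hspa5* rose in LYVE1+CX3CR1+ (1.02 ± 0.15, edgeR, adjusted p = 0.000984), MHCII+CD11c- (0.66 ± 0.15, adjusted p = 0.0316) and MHCII+CD11c+ macrophages (0.65 ± 0.15, adjusted p = 0.0442). The first call held whichever library was left out, and the other two did not (adjusted p up to 0.119 and 0.264). Over the 3 subsets 4 of 17 rose and 0 fell: *Hspa5* (0.78 ± 0.09), *Hsp90b1* (0.56 ± 0.10), the peptide-loading chaperone *Calr* (0.51 ± 0.09) and *Pdia3* (0.35 ± 0.08), the disulfide isomerase that partners tapasin (edgeR, adjusted p 4.15e-06 to 0.00995, each past the threshold whichever library was left out). The same average called 0 of the 10 members.

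The 2 genes of the PA28 activator, which docks onto the proteasome and is itself interferon-inducible, were both lower in untreated LYVE1+CX3CR1+ than in MHCII+CD11c+ macrophages. *Psme1* was at 79.7 to 133 against 165 to 208 CPM (-0.80 ± 0.20, edgeR, adjusted p = 0.0037) and *Psme2* at 39.8 to 54.6 against 66.7 to 90.7 CPM (-0.70 ± 0.24, adjusted p = 0.0355). They were the 2 called of 9 activator and assembly genes, beside 21.8% of all genes tested. Without LYVE1+CX3CR1+ replicate 3 neither was called (edgeR, adjusted p = 0.0557 and 0.166). After IC the same 2 of 9 were called, beside 19.7% of all genes tested. *Psme1* (-0.85 ± 0.20, edgeR, adjusted p = 0.0023) passed whichever library was left out. *Psme2* (-0.67 ± 0.24) was at the threshold (edgeR, adjusted p = 0.05, up to 0.252 with a library left out). Against untreated MHCII+CD11c- macrophages 0 of 9 were called (edgeR and DESeq2, and 1 at an unadjusted p under 0.05). Of 11 further 20S core subunits, 0 were called against untreated MHCII+CD11c- macrophages (edgeR and DESeq2, and 0 at an unadjusted p under 0.05). Against untreated MHCII+CD11c+ macrophages 2 were, *Psma4* (-1.16 ± 0.20, edgeR, adjusted p = 7.39e-05) and *Psma7* (-0.72 ± 0.24, adjusted p = 0.0324, up to 0.228 with a library left out). *Psma4* was also higher in untreated MHCII+CD11c+ than in MHCII+CD11c- macrophages (1.03 ± 0.20, edgeR, adjusted p = 0.0034), whichever library was left out. There *Tyk2* was higher (0.92 ± 0.25) and *Abcb9* lower (-4.08 ± 1.1), and after IC *Tyk2* (1.05 ± 0.28) and *Uggt1* (0.67 ± 0.18) were higher. These calls (edgeR, adjusted p 0.0377 to 0.0405) were lost without some libraries.

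The 4 class I genes of the *Psmb9* to *Tap2* stretch are flanked on both sides by class II genes, whose protein the sort used. The class II loading genes *H2-DMa*, *H2-DMb1* and *H2-DMb2* to the left were lower in untreated LYVE1+CX3CR1+ than in MHCII+CD11c+ macrophages by log2 fold changes of -4.77, -4.93 and -6.07 (edgeR, adjusted p 2.7e-13 to 3.1e-15), and the class II chains *H2-Ab1*, *H2-Aa* and *H2-Eb1* to the right by -8.46, -10.34 and -10.17. Between them *Psmb9*, *Tap1*, *Psmb8* and *Tap2* stood at -1.64, -1.04, -0.79 and -0.23, and the class II regulator *H2-Ob*, next on the right, at -1.18. *Brd2*, a bromodomain gene left of the class II loading genes, was at -0.46 (adjusted p = 0.0481). The differences of the class I genes were thus smaller than those of the 6 class II genes first named, *H2-Ob* and *Brd2* lay within the members' range, and *Tap2* did not pass the test.

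**Figure D5:**
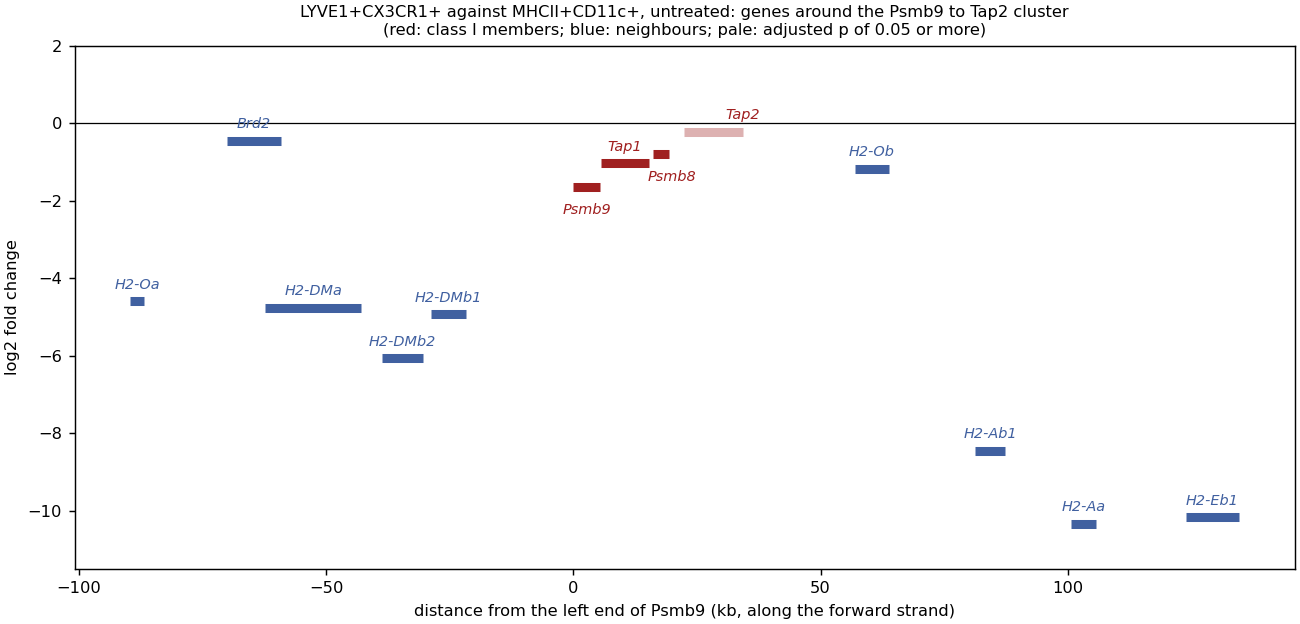
Log2 fold change in untreated LYVE1+CX3CR1+ against MHCII+CD11c+ macrophages (vertical axis) of the protein-coding genes around the *Psmb9* to *Tap2* stretch, drawn as bars at their distance from the left end of *Psmb9* (horizontal axis, kb), with class I members in red, neighbors in blue and genes that did not pass the test pale. The members lie between -1.64 and -0.23, and the class II chains on the right at or below -8.46.

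Some member counts may include reads of other genes, since the strand and overlap settings of the counting are not given in the sources used here. Of all 75-base windows of the members' longest coding transcripts (GENCODE M21), 10.8% of those of *Psmb9* also occur in transcripts of *Tap1*, 17.5% of those of *Tapbp* and 13.1% of those of *H2-T23* occur in another gene, and for *B2m* and *Psmb10* the share was 0%. *H2-K1* shared 1.55% of its windows with *H2-D1*. In GENCODE M21 *B2m* overlaps *Patl2* and *Tap1* overlaps *Psmb9* on the opposite strand, and antisense genes overlap *H2-T23*, *Tap2*, *Psmb8*, *Tapbp* and *Psmb10*. A row named *H2-L*, a class I gene of other mouse strains, held 0.859 to 0.941 of the *H2-D1* count in each of the 18 libraries, so reads of *H2-D1* may have been assigned to both names.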

How the data were processed

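Bulk RNA-seq libraries of 3 sorted synovial macrophage subsets, untreated or 8 h after IC, were analysed (18 libraries, 3 per group). The authors cleaned reads with Trim Galore, mapped them with HISAT2 (mm10) and summarised them by gene with featureCounts. They deposited raw counts per gene symbol for each library, without normalization. Tool versions, annotation, strand setting and the handling of multiply matching reads are not given in the sources used here. The series' combined table repeats these values and was not used.

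R 4.3.3 with edgeR 4.0.16 gave TMM factors and CPM, and filterByExpr left 10550 of 24421 genes. Groups, taken from the sample titles, were compared by the quasi-likelihood test (glmQLFTest) in a single fit to the 18 libraries, with Benjamini-Hochberg adjustment over all genes tested and a threshold of 0.05. The SE is the log2 fold change divided by the square root of F, and 95% intervals use the t distribution of the fit. The code was tested on simulated data. Totals of 245903 to 2172358 counts limit precision most in the MHCII+CD11c- IC group. No 2 libraries of a group were alike within sampling noise (smallest chi-square per gene 3.42). Exon lengths came from GENCODE M21, and promoters and positions from RefSeq (GRCm38), matched by symbol for 9 and 10 members.

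The members and lists were chosen with earlier results of these data known. All members are named, with statistics for those past the threshold, at the end of a range or with groups apart. From each list, up to 4 genes past the threshold with the largest changes are named, and *Fcgrt*, *Nfya*, *H2-L* and the neighbors of *Tap1* were named beyond this rule, after their values were seen. One gene that the rule would name is not reported here. Alternatives were DESeq2's size factors, replicate blocks, no filter, a minimum of 10 counts per library, DESeq2 1.42.0 (Wald test), fitting the compared libraries alone, 1 surrogate variable of sva 3.50.0, and leaving out each library.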

Additional observations from a re-analysis of the deposited data

How the results depend on the processing

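The 12 member calls kept their direction under every alternative that gave a value. The counts of members called moved by over 1.5 times in 2 comparisons. For LYVE1+CX3CR1+ against MHCII+CD11c- macrophages after IC (2 members), the count was 0 with a fit to only the libraries compared and 0 with 1 surrogate variable, and 0 to 2 with 1 library left out. For the same subsets untreated (3 members) it was 0 to 2 with 1 library left out. Against MHCII+CD11c+ macrophages the count was 3 to 4 untreated and 2 to 3 after IC over all alternatives. In the other 9 comparisons it was 0 throughout. With no filter on low counts, *H2-T23* lost its call against MHCII+CD11c- macrophages in both conditions (adjusted p = 0.0977 and 0.109), and *Psmb8* after IC gained it (0.0482), as with DESeq2 (0.037). With at least 10 counts in every library, *Psmb9* and *Psmb10* were not tested. The causes were not tested. Of 62 calls of pathway genes outside the members, 32 passed whichever library was left out. The counts called per pathway list moved by over 1.5 times in 65 cases and by less in 529 under the other alternatives.

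The labels do not say that replicate numbers mark shared pools. Same-numbered libraries of different subsets within a treatment deviated together with correlations of -0.07 to 0.23, over 0.1 in 6 of 18 pairs. As the correlation was not over 0.1 in every pair, the numbers were not taken as pairs, although 27 of 36 library and subset pairs correlated best with their own number, a hint from the data that numbers may mark shared pools. With the replicate block, or the replicate block within treatment, *Psmb8* was also called against MHCII+CD11c- macrophages after IC (log2 fold change -0.71, adjusted p = 0.038 and 0.0206), and the members called in the other comparisons were as many as without it. The fit to only the libraries compared is the same fit for the average over subsets, and the block within treatment cannot be fitted with the IC comparisons.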

Other observations

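The members did not move as a single unit from library to library. Over the 18 libraries the median Pearson correlation of log2 CPM between 2 members was 0.29 (45 pairs, 33 of them above 0), and after the group means were removed it was 0.37 (28 above 0). The points share their library totals and scaling, and the pairs share members. The genes outside the lists most like the mean of the 10 standardised members over the 18 libraries were *Nfam1* (r = 0.90), *Prex1* (0.88), *H2-L* (0.87), *Zfp62* (0.87) and *Gfpt1* (0.87). For deviations from the group means, also over 18 libraries, they were *Basp1* (0.97), *Ccdc88b* (0.94), *Tpp1* (0.93), *Eef1g* (0.92) and *Gm29766* (0.91). *H2-L* may hold reads of *H2-D1*, as described above. All correlations of members given here include the smallest library, MHCII+CD11c- IC replicate 2, which was lowest for 5 members. They were not computed without it, so a single library may weigh heavily in them.

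A pair of class I-like Qa-2 genes fell with IC over the 3 subsets while the members did not change past the test: *H2-Q6* had a log2 fold change of -1.69 ± 0.25 (edgeR, adjusted p = 0.000116) and *H2-Q7* of -0.80 ± 0.18 (adjusted p = 0.00631), past the threshold whichever library was left out. *H2-T24*, another nonclassical heavy chain, rose by 0.55 ± 0.17 (edgeR, adjusted p = 0.0487, up to 0.123 with a library left out). The summed neutrophil and dendritic cell markers also differed between conditions, as given above, and their part in these changes was not tested.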
